A study of Mus musculus with 9 samples.

Results

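The dendritic cell identity genes described here are Itgax, Flt3, Zbtb46, Xcr1, Clec9a, Cd209a, Batf3, Irf8, Irf4 and Cd83. They are 10 of the 56398 features in the deposited tables, were taken as a fixed list of symbols, and each matched 1 Ensembl identifier through GENCODE M21. RNA sequencing was done on 9 samples from BALB/c mice in 3 groups of 3. The sham group was healthy colon. The model group was tumour from mice injected with CT26, a transplantable colon carcinoma line that grows in this strain, and given saline once a day at 6 g/kg. The AC group was tumour of the same kind from mice given Astragalus and Curcuma phaeocaulis Valeton, a herb pair mixed as 2 parts to 1 part, once a day at 6 g/kg. The sources used here do not give the injection site, the age or sex of the mice, or the handling of the sham mice. The tumours come from a single injected line, so tumour and colon differ in the whole tissue. Nothing in the labels ties each sample to its own animal, so the p-values may reflect only technical spread among the samples.

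Dendritic cells take up antigen and present it to T cells. Conventional dendritic cells of type 1 (cDC1) depend on the transcription factors Irf8 and Batf3 and carry the chemokine receptor Xcr1 and the lectin Clec9a, which binds exposed actin of dead cells. Those of type 2 (cDC2) depend more on Irf4 and in mice can carry the lectin Cd209a. Zbtb46 is a transcription factor of both conventional types, Flt3 is the receptor for the growth factor that maintains them, Itgax is the integrin CD11c, and Cd83 is a surface protein of activated cells. Several of these genes are also used elsewhere: Irf8, Irf4 and Cd83 by B cells, Irf8 and Itgax by macrophages, and Zbtb46 by endothelium.

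Library totals ran from 15690038 to 23476056 counts, and values are given as CPM, counts scaled to library size, with TMM factors over all 9 libraries. Sham 1 stood apart from the other sham libraries: its 9 B cell markers summed to 1150 CPM against 151 and 81.1, and its 6 smooth muscle markers to 114 CPM against 1350 and 1470. Model 1 and AC 3 held more epithelial transcript than the other tumours, with 477 and 796 CPM over 8 markers against 189 to 284. Krt20 made up most of the sum in the other tumours, at 178 to 270 CPM. Epcam was at 35.6 CPM in model 1 and 67.6 in AC 3, against 0.259 to 0.95 CPM in the others. Krt8 was at 76.5 and 170 CPM against 2.5 to 5.7. Mitochondrial transcripts took 7.01% to 8.63% of counts in colon and 2.29% to 2.65% in tumours. Replicates differed by more than counting error in every pair: the chi-square per degree of freedom over genes was 3.06 between sham 2 and sham 3, the closest pair, 100.45 and 118.83 between sham 1 and these, and 10.19 to 28.66 among tumours of a group. In whole tissue, fewer cells of a type and less RNA per cell cannot be told apart.

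All 10 genes had reads in every library, but their depth differed widely. Irf8 had 610 to 2640 counts per library, while Cd209a had 1 to 6 and Batf3 5 to 14. Those last genes did not pass the filter on low counts in any comparison, so 8 members were tested. The limit used for a gene without reads was 3 counts per library (0.112 to 0.24 CPM), and Cd209a was at or near it throughout.

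Model tumours were compared with colon to ask how the injected tumour differs from normal tissue. Itgax, Zbtb46 and Clec9a rose, 3.03-fold to 4.95-fold, and Irf8 and Irf4 fell, by 4.81-fold and 8.33-fold. Flt3, Xcr1 and Cd83 were not called. That is 5 of 8 tested members, 3 higher and 2 lower, where 69.7% of the 18228 genes tested were called (36.8% higher and 32.9% lower), so the members' share is no higher than that of all genes. The median log2 fold change of the 8 members was -0.59, beside 0.12 over all genes. With library totals in place of scaling factors the median over all genes was 0.72 with 9060 genes higher and 4405 lower, against 6700 and 5997 with them, and the 5 called members kept their direction and their call.

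**Figure D1:**
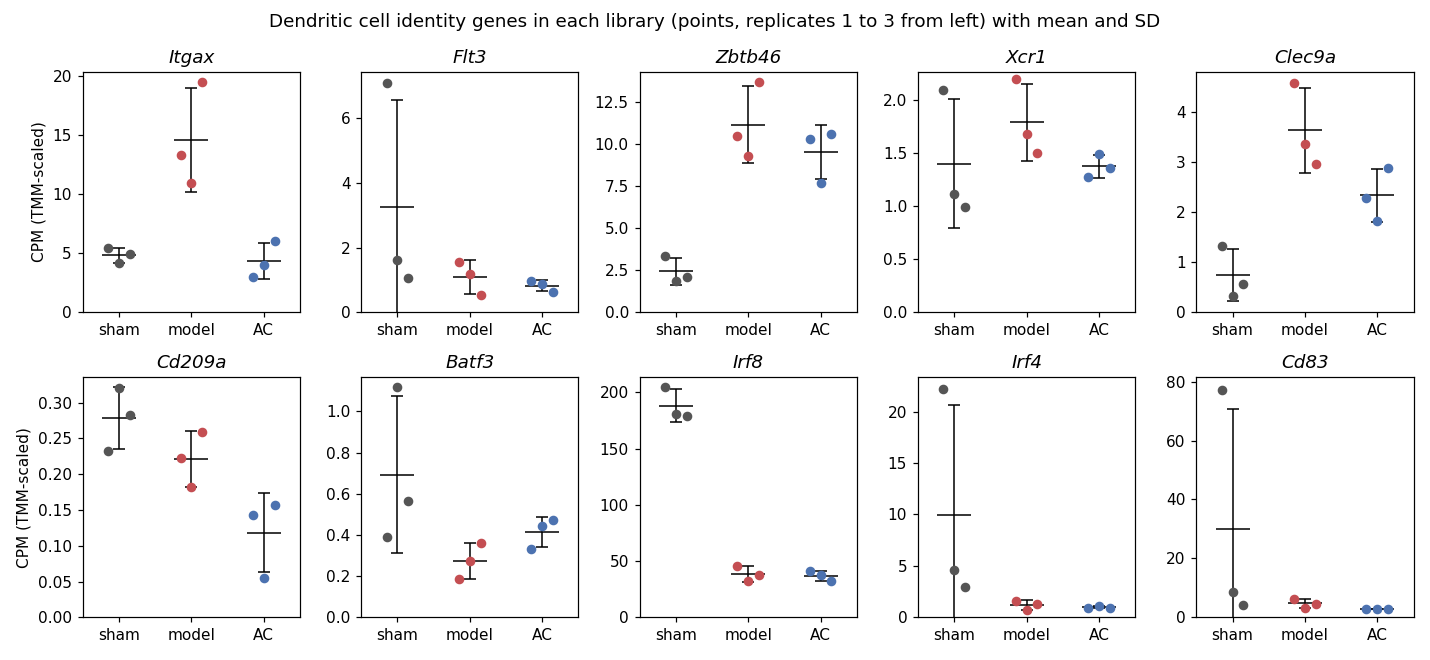
TMM-scaled CPM of each gene in the 9 libraries (points, coloured by group, replicates 1 to 3 from left), with the group mean and SD (bars, not drawn below 0). Itgax is high in the model group alone, Zbtb46 and Clec9a in both tumour groups, and Irf8 in colon. In Flt3, Irf4 and Cd83 sham 1 lies far above the other sham libraries.

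Itgax (ENSMUSG00000030789, chromosome 7, 128129547 to 128150657 on the plus strand, GRCm38) encodes the alpha chain of CD11c. It measured 5.44, 4.17 and 4.88 CPM in the sham libraries and 13.3, 10.9 and 19.5 CPM in the model tumours. Every model tumour was above every colon library. The log2 fold change was 1.6 (SE 0.282, edgeR adjusted p 0.00233). Macrophage markers, whose cells can also carry CD11c, moved the same way: 9 of 10 rose and 1 fell, and they summed to 237 to 251 CPM in colon and 845 to 1120 CPM in model tumours. Of 8 monocyte markers 7 rose and 1 fell, and they summed to 1650 to 2040 CPM in colon and 4030 to 5670 CPM in model tumours. Different genes made up most of these sums: Plac8, the marker that fell, in colon (1580 to 2010 CPM), and Fn1 in model tumours (3790 to 5420 CPM). No marker of either list was at 0 throughout a group, and their part in the Itgax difference was not tested.

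Zbtb46 (ENSMUSG00000027583, chromosome 2, 181387762 to 181459426 on the minus strand) is the regulator that separates conventional dendritic cells from monocytes and macrophages. Its levels were 3.34, 1.84 and 2.12 CPM in colon and 10.5, 9.28 and 13.7 CPM in model tumours. All model tumours lay above all colon libraries (log2 fold change 2.2, SE 0.333, adjusted p 0.00122).

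Clec9a (ENSMUSG00000046080, chromosome 6, 129408862 to 129424763 on the plus strand), the cDC1 receptor for dead cells, was at 1.32, 0.32 and 0.566 CPM in colon, from 17, 4 and 8 reads. In model tumours it was at 4.58, 3.36 and 2.95 CPM (log2 fold change 2.31, SE 0.553, adjusted p 0.00872). The groups did not overlap, and the difference was 3.04 on the log2 scale without sham 1. Clec9a shares 184 exonic bases with its neighbour Clec1b on the same strand, and how reads there were counted is not stated, so its counts are uncertain. Clec1b itself had 1 to 10 counts per library.

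Xcr1 (ENSMUSG00000060509, chromosome 9, 123852315 to 123862029 on the minus strand), the receptor for the chemokine Xcl1 and the other cDC1 surface marker, did not show the same difference. It measured 2.1, 1.12 and 0.991 CPM in colon and 2.2, 1.68 and 1.5 CPM in model tumours, and the groups overlapped through sham 1. Its log2 fold change was 0.37 (SE 0.421, adjusted p 0.454), and 0.81 without sham 1 (adjusted p 0.072).

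Irf8 (ENSMUSG00000041515, chromosome 8, 120736358 to 120756694 on the plus strand) was the most abundant of the 10 genes. It stood at 205, 181 and 179 CPM in colon and at 45.7, 32.2 and 38.0 CPM in model tumours. The groups were far apart (log2 fold change -2.27, SE 0.192, adjusted p 0.000116). Sham 1, with its high B cell markers, was only 1.14 times the mean of sham 2 and sham 3 in Irf8. The cells that gave the colon signal were not identified.

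Irf4 (ENSMUSG00000021356, chromosome 13, 30749226 to 30766976 on the plus strand), a factor of cDC2, plasma cells and activated lymphocytes, was at 22.2, 4.65 and 2.97 CPM in colon. Model tumours had 1.6, 0.682 and 1.3 CPM, below every colon library (log2 fold change -3.06, SE 0.88, adjusted p 0.0186). Its size rested in part on sham 1: without that library the log2 fold change was -1.62 (adjusted p 0.00599). The call was lost without model 2 (adjusted p 0.0701) or model 3 (0.0649).

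Cd83 (ENSMUSG00000015396, chromosome 13, 43784775 to 43803132 on the plus strand) spread most in colon, at 77.1, 8.57 and 4.32 CPM. Model tumours had 6.36, 3.27 and 4.56 CPM and overlapped with sham 3 (log2 fold change -2.68, SE 1.1, adjusted p 0.0659). Without sham 1 the log2 fold change was -0.4 (adjusted p 0.355), and DESeq2 on all libraries called it (adjusted p 0.00641). Flt3 (ENSMUSG00000042817, chromosome 5, 147330741 to 147400489 on the minus strand) behaved similarly, with 7.08, 1.6 and 1.06 CPM in colon and 1.56, 1.18 and 0.518 CPM in model tumours. Its log2 fold change of -1.55 (SE 0.835, adjusted p 0.137) became -0.22 without sham 1 (adjusted p 0.702).

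B cell, plasma cell and T cell markers moved with the genes that were lower in tumours, and so did epithelial and smooth muscle markers. Of 9 B cell markers 8 fell and 1 was not called, and their sum was 81.1 to 1150 CPM in colon and 6.96 to 27.7 CPM in model tumours. All 5 tested plasma cell markers, of 6, fell, from a sum of 533 to 870 CPM to 120 to 142 CPM. Of 9 T cell markers 5 fell and 4 were not called, from 49.2 to 143 CPM to 25.4 to 35.7 CPM. Of 8 epithelial markers 7 fell and 1 was not called (median log2 fold change -7.39), and all 6 smooth muscle markers fell (median -5.87). The part of these lists in the values of Irf4, Irf8, Cd83 and Flt3 was not tested. Sham 1 was 12 times the mean of the other sham libraries in Cd83, 5.84 times in Irf4 and 5.31 times in Flt3. It was 2.98 times that mean in Clec9a, 1.99 in Xcr1, 1.69 in Zbtb46, 1.2 in Itgax and 1.14 in Irf8.

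**Figure D2:**
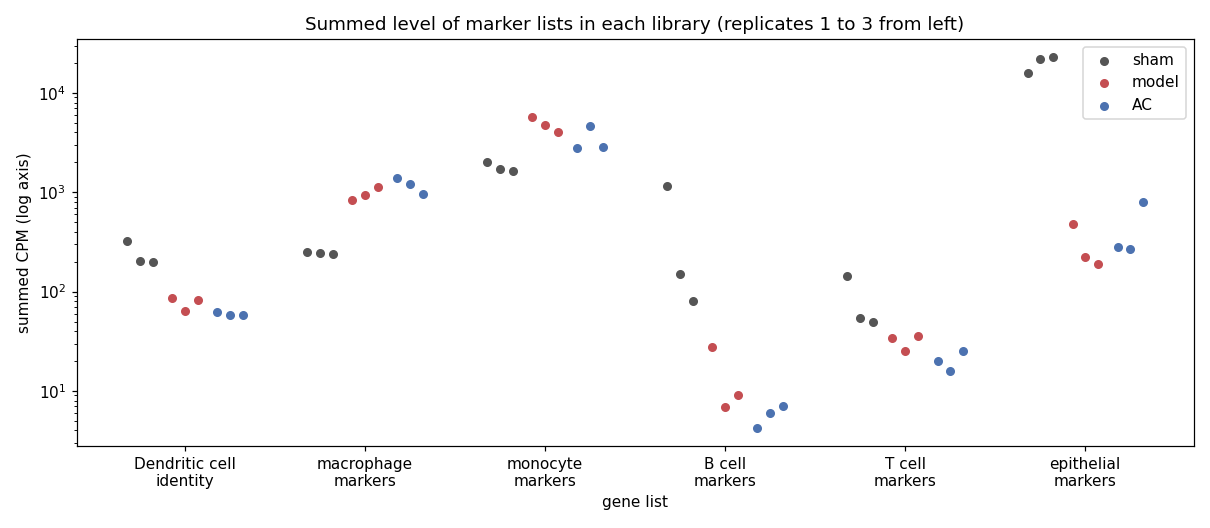
Summed CPM (log axis) of the 10 dendritic cell identity genes and of 5 marker lists in each library, coloured by group, replicates 1 to 3 from left. The dendritic cell sum, in which Irf8 is the most abundant gene, is 197 to 325 CPM in colon and 57.6 to 86.2 CPM in tumours; macrophage markers lie the other way, and B cell markers are highest in sham 1 at 1150 CPM.

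The cDC2 lectin Cd209a (ENSMUSG00000031494, chromosome 8, 3743397 to 3748984 on the minus strand) belongs to a family of close copies, so its reads are uncertain. It had 3, 4 and 4 counts in colon, 6, 4 and 5 in model tumours and 3, 1 and 3 in AC tumours, too few to compare. Batf3 (ENSMUSG00000026630, chromosome 1, 191097847 to 191108945 on the plus strand), a partner of Irf8 in cDC1, had 5, 14 and 8 counts in colon, 5, 6 and 7 in model tumours and 7, 8 and 9 in AC tumours. When all genes with a read were kept, the edgeR adjusted p for model tumours against colon was 0.789 for Cd209a and 0.145 for Batf3.

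The promoters of the genes that were called together are shown to set the genes that rose beside those that fell. Sequences are from RefSeq (GRCm38.p6), which held 9 of the 10 genes, and run from 250 bases before to 50 after an annotated start. Capitals mark matches to TGANTCA, bound by AP-1 factors, the class that includes Batf3, or to TATAAA, the TATA box, on either strand. The windows of the 3 genes that rose are at chr7:128129300-128129599 on the plus strand for Itgax, chr2:181424339-181424638 on the minus strand for Zbtb46, and chr6:129408612-129408911 on the plus strand for Clec9a. The Zbtb46 window is at a start far inside the GENCODE gene, so it may not be a promoter.
Itgax: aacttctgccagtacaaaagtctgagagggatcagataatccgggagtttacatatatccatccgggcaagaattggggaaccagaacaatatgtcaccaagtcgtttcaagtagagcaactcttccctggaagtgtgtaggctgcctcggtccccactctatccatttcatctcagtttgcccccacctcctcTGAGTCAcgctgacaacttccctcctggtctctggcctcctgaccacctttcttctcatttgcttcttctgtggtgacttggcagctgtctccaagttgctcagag
Zbtb46: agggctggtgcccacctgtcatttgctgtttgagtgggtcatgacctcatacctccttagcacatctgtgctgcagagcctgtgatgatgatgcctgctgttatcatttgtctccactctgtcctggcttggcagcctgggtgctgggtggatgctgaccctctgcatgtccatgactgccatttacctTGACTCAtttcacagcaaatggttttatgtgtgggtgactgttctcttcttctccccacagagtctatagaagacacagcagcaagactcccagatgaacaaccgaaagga
Clec9a: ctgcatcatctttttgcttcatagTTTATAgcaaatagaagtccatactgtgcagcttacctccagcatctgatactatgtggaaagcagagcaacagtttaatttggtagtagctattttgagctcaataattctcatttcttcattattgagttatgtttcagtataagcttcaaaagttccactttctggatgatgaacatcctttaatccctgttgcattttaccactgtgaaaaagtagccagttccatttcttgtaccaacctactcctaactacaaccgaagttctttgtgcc
Those of the 2 genes that fell are at chr8:120736108-120736407 for Irf8 (the first of 2 starts) and chr13:30748983-30749282 for Irf4, both on the plus strand.
Irf8: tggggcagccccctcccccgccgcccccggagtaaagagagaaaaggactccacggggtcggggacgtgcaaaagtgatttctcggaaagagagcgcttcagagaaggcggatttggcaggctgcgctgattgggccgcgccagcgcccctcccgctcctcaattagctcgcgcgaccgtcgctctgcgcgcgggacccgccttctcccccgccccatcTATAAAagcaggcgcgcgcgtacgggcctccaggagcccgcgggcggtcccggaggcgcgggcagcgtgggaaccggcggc
Irf4: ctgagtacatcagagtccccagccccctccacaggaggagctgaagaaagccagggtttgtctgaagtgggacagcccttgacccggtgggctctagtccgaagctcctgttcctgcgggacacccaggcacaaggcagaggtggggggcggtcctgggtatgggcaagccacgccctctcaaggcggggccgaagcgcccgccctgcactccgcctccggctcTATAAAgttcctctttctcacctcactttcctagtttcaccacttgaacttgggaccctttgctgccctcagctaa

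The AP-1 letters occurred in the windows of Itgax and Zbtb46, starting 56 and 61 bases upstream of the start, and in no other member window. The Zbtb46 window ends at 181424638, while this minus-strand gene begins at 181459426. Its AP-1 match and CG count therefore may not describe a promoter. The same letters occurred in 7.81% of all 32851 RefSeq promoters of that length. TATAAA lay 31 bases upstream of the first start of Irf8 and 26 upstream in Irf4, and occurred in 13.6% of all promoters. On the other strand it was found 226 bases upstream in Clec9a, 160 in Xcr1 and 184 in Cd209a. It was on neither strand at the second start of Irf8. The PU.1 letters GAGGAAGT matched no member promoter (3.2% of all promoters, both strands). Of 2 longer motifs searched the same way, the ETS-IRF composite (2.72% of all promoters) matched Cd209a alone and the interferon response core (3.44%) matched no member. The windows held 38 CG dinucleotides at the first start of Irf8, 8 at its second start and 11 in Irf4, against 5 in Itgax and 1 each in Zbtb46 and Clec9a. Members not called in model tumours against colon covered the same range, with 34 in Batf3, 18 in Flt3, 6 in Xcr1 and 1 in Cd209a. The median over all promoters was 7. These matches describe letters in the window only.

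AC tumours were compared with model tumours to ask what the herb pair changed. No member was called by edgeR at an adjusted p under 0.05: 0 of 8, where 0.0% of 17137 genes were called. At an unadjusted p under 0.05 there were 2 members, Itgax and Cd83, beside 13.1% of all genes. limma-voom called 0 members, beside 0 genes higher and 0 lower. DESeq2 called 1 member, Itgax, beside 71 genes higher and 188 lower of 17137. All 8 log2 fold changes were negative in AC tumours (median -0.4, beside 0.01 over all genes).

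Itgax differed most. It measured 2.99, 3.98 and 6.03 CPM in AC tumours against 13.3, 10.9 and 19.5 CPM in model tumours. Every AC tumour was below every model tumour and close to the colon range of 4.17 to 5.44 CPM. The log2 fold change was -1.75 (SE 0.316), a level 3.36-fold lower, with p 0.000495 and an edgeR adjusted p of 0.163, and it ranked 51 among the p-values of 17137 genes. The call depended on the method. DESeq2 gave an adjusted p of 2.3e-05, edgeR without the count filter 0.0128, and edgeR without AC 3 gave 0.0166 with a log2 fold change of -2.08. Without both model 1 and AC 3, the tumours with more epithelial transcript, it was 0.0357. Itgax was not alone in these fits. Over all genes, DESeq2 called 71 higher and 188 lower of 17137, and edgeR without the count filter 23 and 82 of 33023. Without AC 3 edgeR called 150 higher and 419 lower of 17749 genes, and without both tumours 14 and 80 of 17132. Over all alternatives the adjusted p of Itgax ran from 2.3e-05 to 0.62.

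Other integrin chains, chosen after their values were seen, gave smaller differences in both directions. Itgb2, the beta chain that pairs with CD11c, had 117, 88.8 and 105 CPM in model and 87.8, 103 and 81.5 CPM in AC tumours (log2 fold change -0.19, SE 0.126, adjusted p 0.529). Itgam, the alpha chain of CD11b on myeloid cells, had 57.1, 55.7 and 60.6 CPM in model and 83.3, 80.7 and 50.1 CPM in AC tumours (0.3, SE 0.173, adjusted p 0.484, 0.0311 to 0.943 over the alternatives). Itgal, the alpha chain of the leukocyte integrin LFA-1, went the same way as Itgax, with 22.7, 21.6 and 26.0 CPM in model and 15.2, 13.1 and 19.4 CPM in AC tumours. Its groups did not overlap (-0.56, SE 0.168, p 0.0095, edgeR adjusted p 0.269, 0.0355 to 0.977 over the alternatives). Itgad had 0 to 4 counts per tumour and was not tested. The macrophage markers summed to 845 to 1120 CPM in model and 962 to 1380 CPM in AC tumours, with 0 of 10 called by edgeR, and the monocyte markers to 4030 to 5670 and 2800 to 4600 CPM, with 0 of 8 called. Fn1 made up most of the monocyte sums, with 3790 to 5420 CPM in model and 2370 to 4200 CPM in AC tumours. The difference between Itgax and these integrin and marker genes was not itself tested.

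The remaining members gave smaller values. Cd83 was at 2.71, 2.71 and 2.73 CPM in AC tumours, below the model range of 3.27 to 6.36 CPM (log2 fold change -0.8, SE 0.28, p 0.0188, edgeR adjusted p 0.302). Clec9a was at 2.28, 1.83 and 2.88 CPM, just under the lowest model tumour at 2.95 CPM (-0.64, SE 0.288, adjusted p 0.388). Xcr1 was at 1.28, 1.49 and 1.36 CPM, and its highest AC tumour lay only just below the lowest model tumour at 1.5 CPM (-0.39, SE 0.283, adjusted p 0.581). With Itgax these were 4 of 8 members whose AC tumours all lay below the model tumours, where 9.98% of genes did so and 19.0% did not overlap in either direction. Ptprc, the pan-leukocyte protein CD45, showed the same order, with 78.8, 61.8 and 82.2 CPM against 104, 84.1 and 106 CPM (-0.4, SE 0.137, adjusted p 0.296).

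The transcription factors and the growth factor receptor overlapped between the tumour groups. Zbtb46 measured 10.3, 7.69 and 10.6 CPM in AC tumours (log2 fold change -0.23, SE 0.206, adjusted p 0.661), and Irf8 41.0, 37.4 and 32.0 CPM (-0.08, SE 0.145, adjusted p 0.85). Irf4 was at 0.95, 1.11 and 0.944 CPM (-0.26, SE 0.377, adjusted p 0.793). Flt3 was at 0.95, 0.885 and 0.629 CPM (-0.42, SE 0.439, adjusted p 0.707). The sign of the Irf8 and Irf4 differences changed when single tumours were left out, and that of Flt3 when model 1 and AC 3 were both left out.

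**Figure D3:**
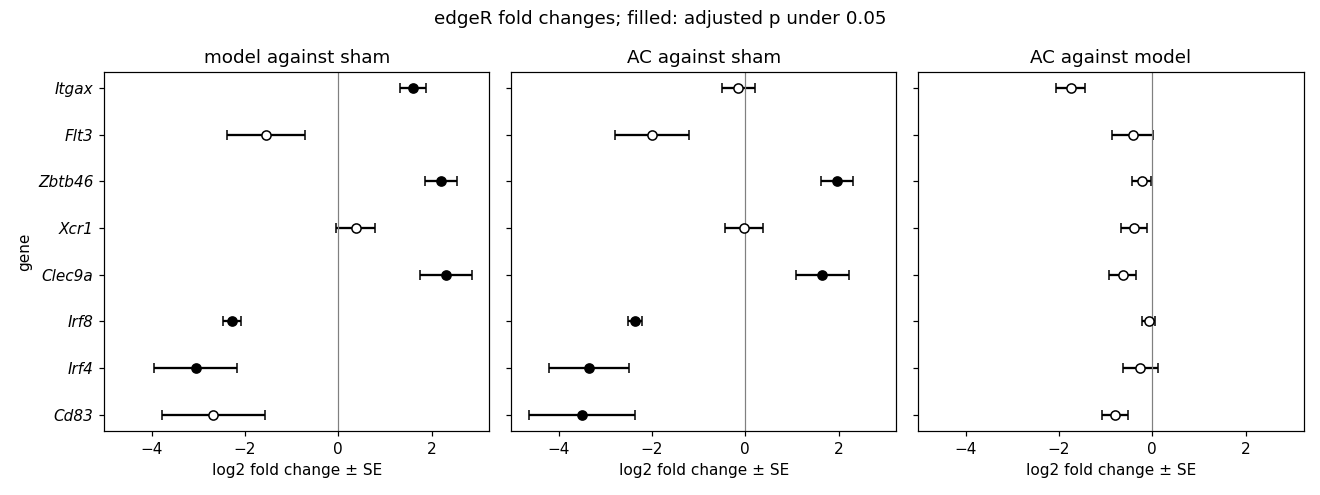
log2 fold change with SE of the 8 tested members in each comparison (edgeR); filled points passed an adjusted p of 0.05. Itgax lies at 1.6 in model tumours against colon, at -0.15 in AC tumours against colon and at -1.75 in AC against model tumours. No member passed in AC against model tumours.

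AC tumours against colon used the same colon libraries as the model comparison, so the values stand side by side and are not independent. Zbtb46 and Clec9a rose, and Irf8, Irf4 and Cd83 fell: 5 of 8 members, where 68.2% of 17832 genes were called (35.5% higher and 32.7% lower). The log2 fold change of Zbtb46 was 1.96 (SE 0.346, adjusted p 0.00263), beside 2.2 in model tumours. That of Clec9a was 1.65 (SE 0.563, adjusted p 0.036), beside 2.31, and its call was lost when any AC library, sham 2 or sham 3 was left out (adjusted p 0.0585 to 0.0996).

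Among the genes that fell, Irf8 stood at -2.36 (SE 0.148, adjusted p 5.86e-05), beside -2.27 in model tumours, and Irf4 at -3.34 (SE 0.857, adjusted p 0.0124), beside -3.06. Without sham 1 Irf4 was at -1.99. Cd83 was at -3.5 (SE 1.14, adjusted p 0.0311), or -1.31 without sham 1, and the call was lost without any AC library (0.0821 to 0.0904). It was also lost by limma-voom (-2.31, adjusted p 0.138), without the count filter (0.104) and without scaling factors (0.053). Flt3 was at -2.0 (SE 0.794, adjusted p 0.0597), or -0.75 without sham 1. Itgax, raised in model tumours, was at -0.15 here (SE 0.356, adjusted p 0.731), and Xcr1 at -0.03 (SE 0.405, adjusted p 0.95). Both of these changed sign with library totals in place of scaling factors, to 0.49 and 0.61.

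Expressing each gene per 100 Ptprc counts of the same library sets it against the leukocyte transcripts present. Ptprc itself was uneven in colon, at 298, 61.4 and 56.2 CPM, with sham 1 at 5.07 times the mean of sham 2 and sham 3. With 3 libraries a group, the exact two-sided permutation test cannot go below p = 0.10, so no ratio could pass 0.05. Irf8 and Itgax, which were alike in CPM across the colon libraries, spread on this scale. Irf8 took 68.8, 295 and 318 per 100 Ptprc counts in sham 1 to sham 3, and Itgax 1.82, 6.79 and 8.69. Flt3 and Irf4, which were high in sham 1 as Ptprc was, were steady across the colon libraries. Flt3 took 2.37, 2.61 and 1.89 per 100 Ptprc counts in colon and 1.5, 1.41 and 0.487 in model tumours. Irf4 took 7.45, 7.57 and 5.29 in colon and 1.54, 0.811 and 1.22 in model tumours. Both genes were thus lower in every model tumour than in any colon library (exact permutation p = 0.1 for each).

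Zbtb46 took 1.12, 3.0 and 3.78 per 100 Ptprc counts in colon and 10.1, 11 and 12.9 in model tumours. It was almost constant in AC tumours, at 13, 12.5 and 12.9. In model tumours against colon, 7 of the 8 tested members did not overlap relative to Ptprc, where 49.8% of genes did not. Itgax, Zbtb46 and Clec9a were higher, as were 31.6% of genes, and Flt3, Irf8, Irf4 and Cd83 lower, as were 18.2%. In AC against model tumours Itgax was the 1 of these 8 that did not overlap, with 12.8, 13 and 18.4 per 100 Ptprc counts in model and 3.8, 6.45 and 7.34 in AC tumours (2.56-fold lower, exact permutation p = 0.1). Of all genes, 32.4% did not overlap on this scale, and 1.06% were lower without overlap. Xcr1, Clec9a and Cd83, which had parted the tumour groups in CPM, overlapped. The shared negative direction of the 8 members in AC against model tumours was not kept on this scale. Itgax, Cd83 and Clec9a were negative (log2 difference -1.36, -0.34 and -0.23). Irf8, Irf4, Zbtb46, Flt3 and Xcr1 were positive (0.34, 0.24, 0.18, 0.13 and 0.05), with groups that overlapped. Batf3, higher in AC, and Cd209a, lower in AC, are outside the 8 and did not overlap either (exact permutation p = 0.1 each). At 1 to 9 counts per tumour they had too few reads to compare. When all genes with a read were kept, the edgeR adjusted p for AC against model tumours was 0.756 for each.

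Set against Zbtb46, the other dendritic cell genes fell into unlike patterns. Clec9a overlapped between all groups, with 27.9 ± 11.1 counts per 100 of Zbtb46 in colon, 33.9 ± 11.3 in model and 24.4 ± 2.57 in AC tumours (SD, n = 3 each). Xcr1 did not: it had 56.8 ± 8.81 in colon, 16.7 ± 5.18 in model and 14.9 ± 3.9 in AC tumours, and tumours and colon did not overlap. Itgax had 163, 226 and 230 per 100 Zbtb46 counts in colon, 127, 118 and 142 in model tumours and 29.2, 51.8 and 56.9 in AC tumours, so that no 2 groups overlapped. Between model tumours and colon 6 of the 7 tested members did not overlap relative to Zbtb46, all lower, where 68.7% of genes were lower without overlap. Between the tumour groups Itgax was the 1 of these 7 that did not overlap (2.9-fold lower in AC, exact permutation p = 0.1), where 1.78% of genes were lower without overlap.

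**Figure D4:**
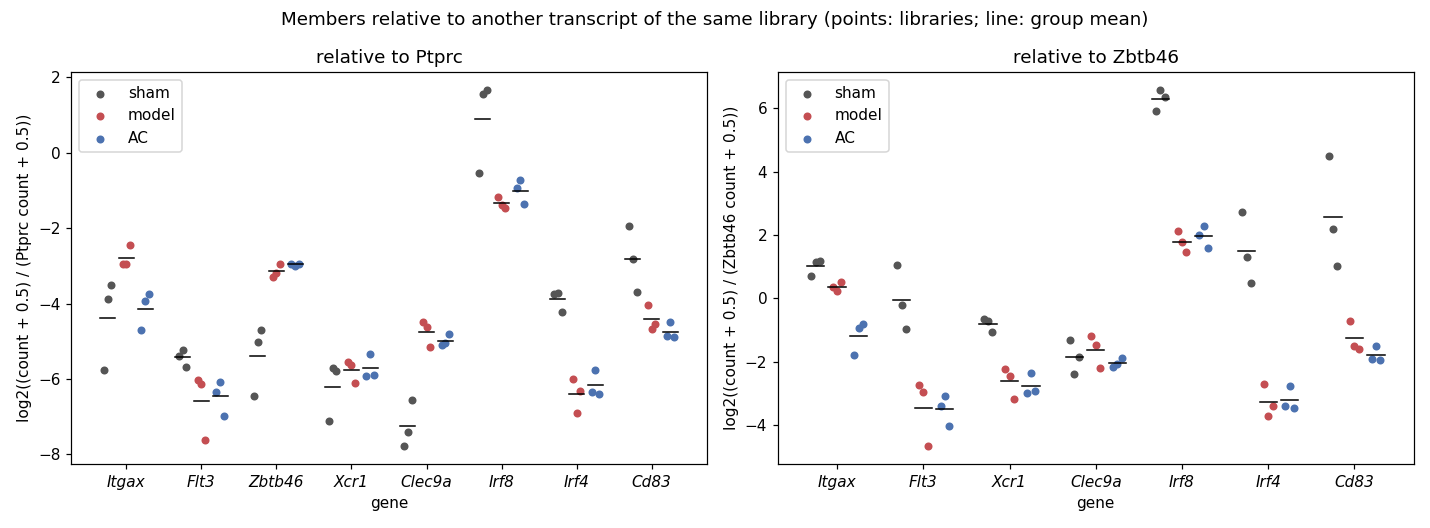
log2 ratio of each tested member to Ptprc (left) and to Zbtb46 (right) in each library, 0.5 added to both counts; points are libraries, coloured by group, and lines are group means. Itgax is the gene whose AC points all lie below its model points in both panels.

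Levels of different genes were compared per length, with the FPKM values that the authors deposited (reads scaled by gene length and library total). Irf8 was highest in all groups, at 20 ± 2.89 FPKM in colon, 6.29 ± 1.13 in model and 6.11 ± 0.729 in AC tumours (SD, n = 3 each). In colon the order below it was Cd83, Irf4, Itgax, Flt3, Batf3, Xcr1, Zbtb46, Clec9a and Cd209a, and each neighbouring pair overlapped. In model tumours Itgax came next at 3.5 ± 1.13 FPKM, followed by Cd83 at 2.11 ± 0.699, Zbtb46 at 1.51 ± 0.34 and Clec9a at 1.26 ± 0.288. Each overlapped with the next in that order, while Irf8 and Itgax did not. Xcr1 at 0.462 ± 0.0902 lay below Clec9a and above Irf4 without overlap, and Irf4, Flt3, Batf3 and Cd209a followed between 0.28 and 0.161 FPKM. In AC tumours Zbtb46 at 1.31 ± 0.236, Cd83 at 1.24 ± 0.0214, Itgax at 1.06 ± 0.388 and Clec9a at 0.83 ± 0.2 overlapped from neighbour to neighbour. Xcr1 at 0.363 ± 0.0239 lay below Clec9a without overlap and was followed by Batf3, Irf4, Flt3 and Cd209a, of which Irf4, Flt3 and Cd209a did not overlap with each other.

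Likeness between genes was described by a profile distance, the root mean square difference over the 9 libraries of log2(CPM + 0.5) after each gene was centred on its mean. Zbtb46 and Clec9a were close (0.34), as were Irf4 and Cd83 (0.42) and Irf4 and Irf8 (0.64). Xcr1 was nearer to Cd209a (0.34) than to Clec9a (0.69). Cd209a, at 0.0553 to 0.32 CPM, lay below the added 0.5 CPM, which flattens its profile, so this nearness says little about likeness. Zbtb46 was farthest from Irf4 (2.03), Irf8 (2.0) and Cd83 (2.0), although Irf8 is the factor on which the Clec9a-bearing cells depend. Distances were taken over all 9 libraries, sham 1 included.

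**Figure D5:**
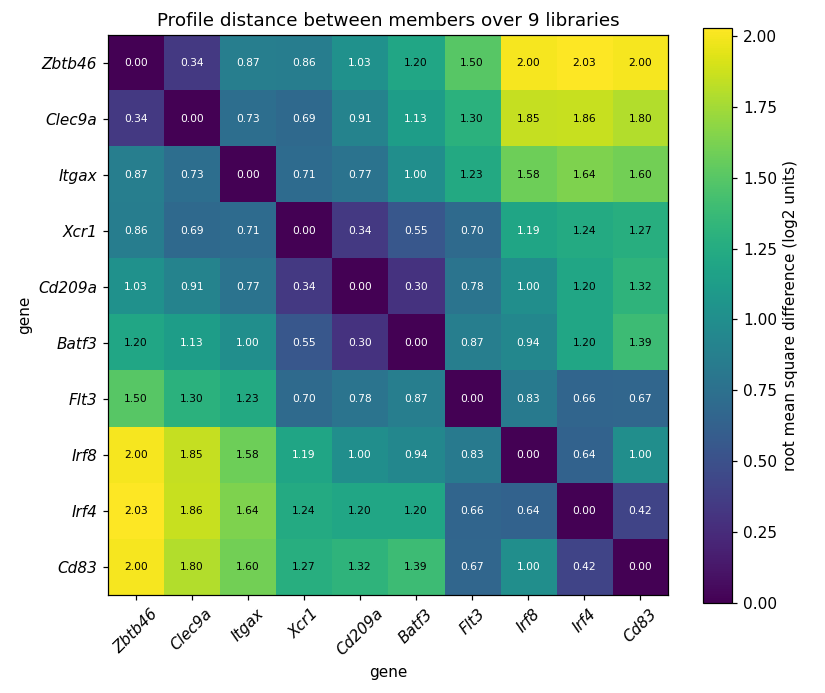
Profile distance (log2 units) between the 10 members over 9 libraries; dark cells are alike. Zbtb46 and Clec9a (0.34) form a corner opposite Irf8, Irf4 and Cd83, and Itgax lies between 0.71 and 1.64 from every other member.

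Among 13139 genes with a symbol and a mean of at least 1 CPM, those nearest to Itgax in profile were Gpc6 (0.28) and Chst11 (0.32). The nearest to Zbtb46 were Zfp607b (0.1) and Twsg1 (0.14), to Clec9a Med12l (0.19) and Sclt1 (0.2), and to Xcr1 Foxp1 (0.12) and Eif3f (0.13). Flt3 lay nearest to Haao (0.24) and Gimap8 (0.25), Cd83 to Rhoh and Hvcn1 (0.25 each), Irf4 to S1pr3 (0.18) and Igkv6-32 (0.2), and Irf8 to Zfp36 and Cox6b1 (0.11 each). No other member was among the 2 nearest genes of any member.

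Further genes of dendritic cell biology were taken from 6 lists, whose counts in model tumours against colon stand beside 36.8% of all genes higher and 32.9% lower. Of 10 other cDC1-associated genes, 3 rose and 4 fell in model tumours against colon (median log2 fold change 0.13, beside 0.12 over all genes). The adhesion molecule Cadm1 rose by 4.45 on the log2 scale (SE 0.402, adjusted p 0.000148) while the RNA sensor Tlr3 fell (-1.15, SE 0.123, adjusted p 0.000278). The innate sensor Tlr11 was called too, but its colon level of 0.0708 to 0.155 CPM was under the limit of 3 counts, so no fold is given; model tumours had 1.09 to 1.46 CPM. Wdfy4, which cDC1 need to cross-present, was at 16.8 ± 12.7 CPM in colon, 20 ± 2.89 in model and 13.3 ± 0.799 in AC tumours (SD, n = 3 each) and was not called. Of 9 tested cDC2-associated genes, 4 rose and 3 fell (median 1.06), among them Notch2, a receptor on which a cDC2 subset depends, at 3.53 (SE 0.349, adjusted p 0.000213), and the transcription factor Klf4 at -3.3 (adjusted p 4.25e-05). Many of these genes are also expressed by other cells.

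The mature and migratory genes had 2 of 10 tested higher and 1 lower (median -0.55): Cd80, a costimulatory ligand, at 4.11 (SE 0.504), Fscn1, an actin-bundling protein, at 4.67 (SE 0.649), and Socs2, a cytokine signalling inhibitor, at -2.25 (SE 0.232), each with an adjusted p of at most 0.000856. Plasmacytoid genes had 1 of 7 higher and 5 lower (median -3.54). Those that fell included Pacsin1, an endocytic adaptor, at -3.54 (SE 0.438, adjusted p 0.000504), and Ly6d, also a marker of early B cells, at 23.8, 5.29 and 1.84 CPM in colon and 0 to 0.0372 CPM in model tumours (adjusted p 0.00217). Bst2, also an interferon-induced protein of many cells, rose (2.39, SE 0.168, adjusted p 6.1e-05). Of 10 tested genes of MHC class II presentation 0 rose and 4 fell by edgeR (median -1.2), beside the 32.9% of all genes that fell, including the protease Ctss at -1.39 (adjusted p 0.000428) and H2-Ab1, a chain of the class II molecule, from 131 ± 53.5 to 58.0 ± 3.98 CPM (log2 fold change -1.17, SE 0.302, adjusted p 0.0119). The class II sum was 1110 to 2180 CPM in colon, 673 to 729 in model and 420 to 701 in AC tumours.

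Growth factors, ligands and regulators had 4 of 9 tested genes higher and 1 lower in model tumours against colon (median 0.68). Nfil3, a transcription factor required for cDC1, rose from 3.81 ± 0.887 to 21.5 ± 1.56 CPM (SD, n = 3 each, log2 fold change 2.51, SE 0.228, adjusted p 0.000146). Flt3l, the ligand of Flt3, was at 8.09, 5.05 and 6.23 CPM in colon, 7.81, 10.5 and 12.8 in model and 17.9, 15.9 and 13.6 in AC tumours. Every AC tumour was above every model tumour in Flt3l (0.61, SE 0.199, p 0.0145, adjusted p 0.289), and AC tumours passed the test against colon (1.28, SE 0.261, adjusted p 0.00473). Xcl1, the ligand of Xcr1, was at 0.466, 1.28 and 1.63 CPM in colon and at 0.136 to 0.363 CPM in tumours. Every tumour lay below every colon library, but Xcl1 did not pass the filter on low counts and was not tested. In AC against model tumours edgeR called 0 genes of these 6 lists. The smallest p-values of the cDC1-associated list were those of Tlr11 at -1.58 (SE 0.34, p 0.00122, adjusted p 0.215) and Wdfy4 at -0.59 (SE 0.145, p 0.00294, adjusted p 0.249). The costimulatory receptor Cd40 stood at -1.12 (SE 0.32, p 0.00704, adjusted p 0.264) among the mature genes, and H2-Ob, a modulator of class II loading, at -2.0 (SE 0.652, p 0.0137, adjusted p 0.287). The Flt3l difference was the smallest p of the growth factor list, and Id2, another regulator of cDC1, was at -0.08 (SE 0.115, adjusted p 0.8).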

How the data were processed

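The authors deposited a count table and FPKM values. Per the submitters' processing notes, the tools include featureCounts 1.5.0-p3 and the build is mm9. Aligner and strand setting: not given in the sources used here. Gene lengths implied by the deposited FPKM lay within 1% of GENCODE M21 exon lengths for 96.3% of 17737 genes, so coordinates are GENCODE M21 positions on GRCm38.

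Members and lists were chosen with earlier results of these data known. Each pair of groups was fitted alone on counts with edgeR 4.0.16 in R 4.3.3 (TMM, filterByExpr, robust quasi-likelihood test), with Benjamini-Hochberg adjustment over all genes and a threshold of 0.05. SEs come from the fold change and its F value. Levels are CPM with TMM factors over 9 libraries. Ratios added 0.5 to each count. The text names all members, from each other list some of the up to 3 called genes with the smallest p (the 1 with the smallest p where none was called), textbook partners of a member, and the 2 nearest genes by profile. DESeq2 1.42.0, limma 3.58.1 (voom), other scalings and filters, and leaving out libraries were alternatives. The edgeR script was tested on simulated data. Total counts were 15690038 to 23476056; all replicate pairs differed by more than counting error.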

Additional observations from a re-analysis of the deposited data

How the results depend on the processing

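In model tumours against colon 5 members were called, and 4 to 6 with single libraries left out. In AC against model tumours 0 members were called by edgeR, and 1, Itgax, under DESeq2 and without the count filter. Over all genes, DESeq2 called 71 higher and 188 lower, and edgeR without the filter 23 and 82. Leaving out single libraries gave 0 to 1 members, with the 1 without AC 3, and 1 without model 1 and AC 3 together. Over all genes, 150 were higher and 419 lower without AC 3, and 14 and 80 without both. In AC tumours against colon 5 were called, and 3 to 5 with single libraries left out, the 3 being reached without each AC library in turn. Relative to Ptprc 1 member parted AC from model tumours, and 1 to 3 with single libraries left out; relative to Zbtb46 it was also 1, and 1 to 3. The median profile distance over member pairs was 1.0, and 0.97 with log2(CPM + 1).

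Among the edgeR fold changes of members, sign changes were seen in the AC comparisons, in members not called there. In AC against model tumours these were Irf8 (0.06 without model 1, 0.00426 without AC 3, 0.15 without both), Irf4 (0.02 without model 1, 0.05 without both) and Flt3 (0.08 without both). With libraries left out Irf8 ran from -0.19 to 0.15, Irf4 from -0.54 to 0.05 and Flt3 from -0.74 to 0.08. Against colon, Itgax was at 0.49 without scaling factors and 0.09 without AC 1. Xcr1 was at 0.04 with upper-quartile factors, 0.61 without factors, 0.05 by limma-voom, 0.02 without the count filter, 0.32 without sham 1 and 0.05 without AC 1. With single libraries left out Itgax ran from -0.47 to 0.09 and Xcr1 from -0.25 to 0.32. Some log2 ratios of overlapping groups changed sign too. In model tumours against colon these were Xcr1 to Ptprc (0.44, -0.02 without sham 1) and Clec9a to Zbtb46 (0.23, -0.04 without sham 2). In the AC comparisons they were ratios of Itgax, Flt3, Xcr1, Clec9a, Irf4 and Irf8. Irf8 to Zbtb46 in AC against model tumours was 0.16, and -0.0 without model 3 or without AC 2. Cd83 in AC against colon was at -2.33 (adjusted p 0.104) with the replicate block.

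Replicate numbers do not pair the samples: same-numbered model and AC tumours correlated at -0.59, 0.49 and -0.39. With the replicate number as a block, 5, 0 and 4 members were called in model against sham, AC against model and AC against sham, and Xcr1 was at 0.04 in AC against colon. Cd209a and Batf3 had too few reads to be tested outside the unfiltered fit. Floors cover counting error only, since reads are not independent molecules.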
